A study of Danio rerio with 6 samples.

Results

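The matrix-degrading proteases described here are 4 genes of the deposited expression table, found by their symbols: mmp9, which encodes a gelatinase, mmp13a, which encodes a collagenase, adam8a, which encodes a membrane-anchored metalloproteinase, and ctssb.1, which encodes a cathepsin S. Each symbol matched 1 gene model, so the 4 models are all of those named out of 670 genes in the table. Whole zebrafish larvae of the nacre strain, which lacks melanophores, were either left untreated (3 libraries) or treated with 3 mM hydrogen peroxide (H2O2, 3 libraries). Polyadenylated RNA from pools of larvae was sequenced. On age and duration the sources differ: 3 days post fertilization and 2 hours of H2O2 by the sample labels, 4 days and 3 hours by the methods of the paper. The methods describe anesthesia in tricaine, an agent that the labels do not mention. The study asked which genes respond to a low level of H2O2 in the absence of injury.

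Matrix proteases are made as inactive precursors, and a propeptide has to be removed or displaced before they cut. Gelatinases and collagenases are secreted and need a zinc ion in the active site. Collagenases open the triple helix of fibrillar collagen, and gelatinases cut the unwound chains and the type IV collagen of basement membranes. In zebrafish both mmp9 and mmp13a are known from wounded and regenerating fin epithelium and from myeloid cells. ADAM proteases sit in the plasma membrane and shed the outer parts of other membrane proteins. Adam8 was first described in mammalian leukocytes. Cathepsin S is a cysteine protease of lysosomes that stays active at neutral pH in mammals, where it can also act on the matrix outside the cell.

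The deposited table is not a survey of all genes. The authors kept the genes that passed p under 0.05 and a limit on mean expression in these same 6 libraries, so every gene in it differs between the groups by construction. Values are log2(CPM + 1) for each library, where CPM is the read count of a gene scaled to the total of its library. The steps of the values gave back whole reads (within 0.02) in 100% of the genes. The totals this implies, to which the CPM were scaled, ran from 24727594 to 39766947 reads per library. They need not equal the read pairs sequenced, of which the paper reports more in sum. H2O2 replicate 3 had the lowest implied total and was the highest treated library in 316 of the 414 genes with a higher treated mean. A difference is the treated minus the untreated mean on the log2(CPM + 1) scale, which understates the change of low genes. It was tested two-sided with limma, and the Benjamini-Hochberg adjustment took 24000 as the number of tests, a round figure for the genes that the paper counts as expressed. Limma moderated the spread of each gene by that of the other listed genes, which were selected by p. Its standard errors and p-values carry that selection and may be too small.

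All 4 protease genes were higher in every treated library than in any untreated library, with differences of unequal size. The difference was 1.95 for mmp9, 1.61 for mmp13a, 0.98 for ctssb.1 and 0.40 for adam8a. Ordered by difference among the 670 genes, they stood at places 4, 9, 37 and 332. Of all genes listed, 61.8% had a higher treated mean and 58.4% had every treated library above every untreated one. The genes were selected on the same contrast, so nothing is read from the count of 4. By limma 0 of the 4 passed an adjusted p of 0.05, as did 0% of the table. All 4 had an unadjusted p under 0.05, as did 372 of the 414 higher genes (55.5% of all 670). Larvae were sequenced whole, so fewer cells of a type and less RNA per cell cannot be told apart, and the same holds for a higher level.

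**Figure D1:**
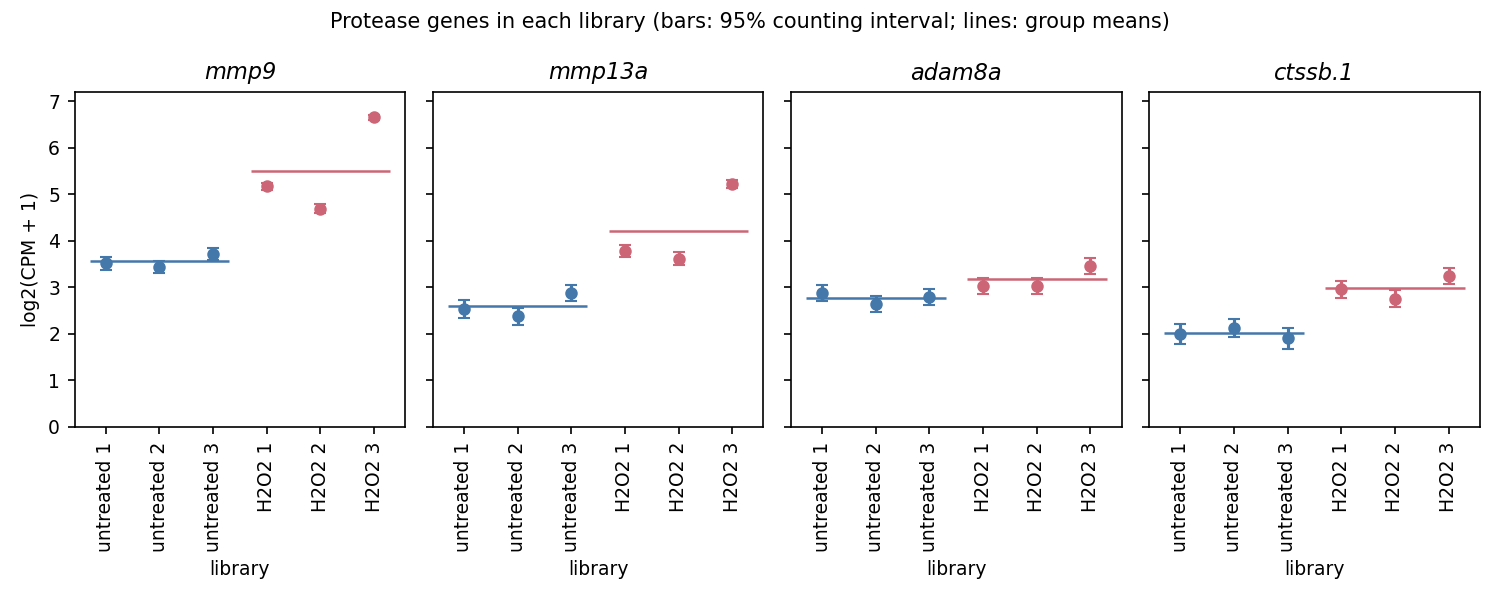
Log2(CPM + 1) of the 4 protease genes in each of the 6 libraries. Points are libraries, bars are 95% intervals for counting error only, and lines are group means. Treated libraries lie above untreated ones in every panel, and H2O2 replicate 3 is the highest, at 6.66 for mmp9 and 5.22 for mmp13a.

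The gelatinase gene mmp9 (ENSDARG00000042816) is a protein coding gene on the forward strand of chromosome 8, from 25134455 to 25148890 of Zv9. Untreated replicates 1, 2 and 3 were at 10.5, 9.81 and 12.2 CPM. Treated replicates 1, 2 and 3 were at 35.0, 24.8 and 100.1 CPM. The lowest treated library thus stood above the highest untreated one, by 0.97 on the log2(CPM + 1) scale, and replicate 3 lay far above the other treated libraries. The untreated mean was 3.56 ± 0.15 log2(CPM + 1) and the treated mean 5.51 ± 1.03 (SD, n = 3 each). For the difference limma gave a standard error of 0.43 and an adjusted p of 0.371. The ratio of the mean CPM was 4.92. Without H2O2 replicate 3 it was 2.76, and the difference in log2(CPM + 1) was 1.37. Behind these values stood 333, 390 and 404 reads in the untreated libraries and 1060, 754 and 2474 reads in the treated ones. The spread of the treated libraries was 24.6 times the SD that counting error alone gives, and that of the untreated libraries 2.16 times.

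The collagenase gene mmp13a (ENSDARG00000012395) lies on the forward strand of chromosome 10, from 39959934 to 39979810 of Zv9. In untreated replicates 1, 2 and 3 it was at 4.78, 4.2 and 6.34 CPM. In the treated replicates it was at 12.8, 11.3 and 36.3 CPM. The groups did not overlap, and again replicate 3 stood apart from the other treated libraries. The mean log2(CPM + 1) went from 2.59 ± 0.25 to 4.21 ± 0.88 (SD, n = 3 each), a difference with a standard error of 0.38 and an adjusted p of 0.472 in limma. The ratio of the mean CPM was 3.94, against 2.36 without H2O2 replicate 3, and the difference in log2(CPM + 1) was then 1.11. Reads numbered 152, 167 and 210 in the untreated and 388, 343 and 897 in the treated libraries. The SD of the treated libraries was 14 times the counting SD. Zebrafish have a further gene of this type, mmp13b, which is not among the symbols of the table, so reads shared between the copies could not be looked at.

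The cathepsin gene ctssb.1 (ENSDARG00000074656) lies on the forward strand of chromosome 16, from 31769424 to 31773725 of Zv9. It was at 2.99, 3.37 and 2.75 CPM in untreated replicates 1, 2 and 3 and at 6.77, 5.76 and 8.49 CPM in the treated ones. All treated libraries were higher, by a gap of 0.63 on the log2(CPM + 1) scale, and replicate 3 was only a little above the others. The mean log2(CPM + 1) went from 2.01 ± 0.11 to 2.99 ± 0.25 (SD, n = 3 each). With a standard error of 0.15, this smaller difference had the lowest p of the 4 genes, 0.140 after adjustment in limma. The ratio of the mean CPM was 2.31, and 2.06 without H2O2 replicate 3. The libraries held 91 to 210 reads of this gene. In the untreated libraries the spread was 1.05 times the counting SD. The name marks it as 1 of a tandem pair. The reference tables list it as ctss2.1, next to ctss2.2 (ctssb.2) on the same chromosome. Whether reads were shared between the copies could not be looked at, so its level is reported as uncertain.

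The gene adam8a (ENSDARG00000001452) lies on the forward strand of chromosome 13, from 24895371 to 24903526 of Zv9. Its level was 6.35, 5.26 and 5.94 CPM in untreated replicates 1, 2 and 3. In treated replicates 1, 2 and 3 it was 7.19, 7.14 and 10.03 CPM. The groups came close to each other without overlapping, with 0.15 on the log2(CPM + 1) scale between the lowest treated and the highest untreated library. The counting intervals of untreated replicate 1, 5.50 to 7.29 CPM, and of treated replicate 2, 6.22 to 8.15 CPM, did overlap. The mean log2(CPM + 1) was 2.77 ± 0.12 without and 3.17 ± 0.25 with treatment (SD, n = 3 each), and limma gave a standard error of 0.15 for the difference and an adjusted p of 1.0. The ratio of the mean CPM was 1.39. Without H2O2 replicate 3 the ratio was 1.23 and the difference in log2(CPM + 1) was 0.26. Each library held 197 to 248 reads.

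The mean distances between the proteases also differed between the groups. They were taken on the log2(CPM + 1) scale, which understates the change of a low gene such as ctssb.1 more than that of mmp9. Within each library the log2(CPM + 1) of one gene was set against that of another, and the 6 pairs were compared between the groups. The distance from mmp9 to adam8a was 0.79 ± 0.14 without and 2.33 ± 0.78 with treatment (SD, n = 3 each), a change of 1.55. The distance from mmp13a to adam8a changed by 1.21, and that from mmp9 to ctssb.1 by 0.97, or by 0.52 without H2O2 replicate 3. That library also raised the changes against adam8a. In H2O2 replicates 1, 2 and 3 mmp9 lay above adam8a by 2.13, 1.66 and 3.20, and mmp13a by 0.75, 0.59 and 1.76. Between mmp9 and mmp13a the change was 0.33, from 0.96 ± 0.11 to 1.3 ± 0.20 (SD, n = 3 each), with the closest libraries at 1.06 and 1.07. For adam8a minus ctssb.1 it was −0.58, so that adam8a lay above ctssb.1 by 0.76 before and by 0.19 after treatment. In these 5 pairs the groups did not overlap (p = 0.1 in an exact permutation test, two-sided, which is the smallest that 3 against 3 libraries allow, and 0.12 adjusted over the 6 pairs). Only in mmp13a minus ctssb.1 did they overlap, with a change of 0.64 (p = 0.3 in the same exact test) that was 0.26 without H2O2 replicate 3. With a smallest possible p of 0.1, none of the 6 could pass 0.05. The genes were selected on this same contrast, and pairs of other table genes were not compared in this way. Nothing is therefore read from the count of 5.

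Much of the spread among treated larvae came from 1 library. Relative to the untreated mean, mmp9 was higher by 1.61, 1.13 and 3.10 in H2O2 replicates 1, 2 and 3, and mmp13a by 1.19, 1.02 and 2.63. For ctssb.1 these values were 0.95, 0.75 and 1.24, and for adam8a 0.26, 0.25 and 0.69. The median of the 414 higher genes was 0.42, 0.34 and 0.72 in the same libraries, so adam8a lay slightly below it and the others above it in every library. The excess of replicate 3 over the mean of the other treated libraries was 1.73 for mmp9 and 1.52 for mmp13a, which are places 1 and 2 of the table. It was 0.43 for adam8a and 0.39 for ctssb.1, at places 181 and 212, against a median of 0.34 in the higher genes. What sets replicate 3 apart was not tested.

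**Figure D2:**
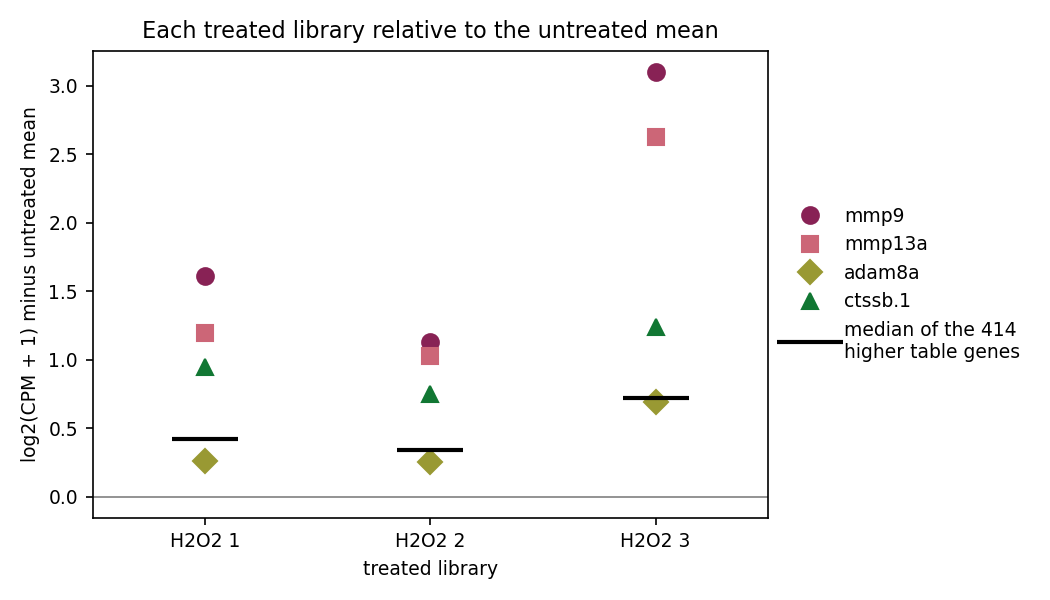
Log2(CPM + 1) of each treated library minus the untreated mean, for the 4 protease genes (symbols) and for the median of the 414 table genes with a higher treated mean (bars). In H2O2 replicate 3, mmp9 stands at 3.10 and mmp13a at 2.63, while adam8a stays near the median in all 3 libraries.

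**Figure D3:**
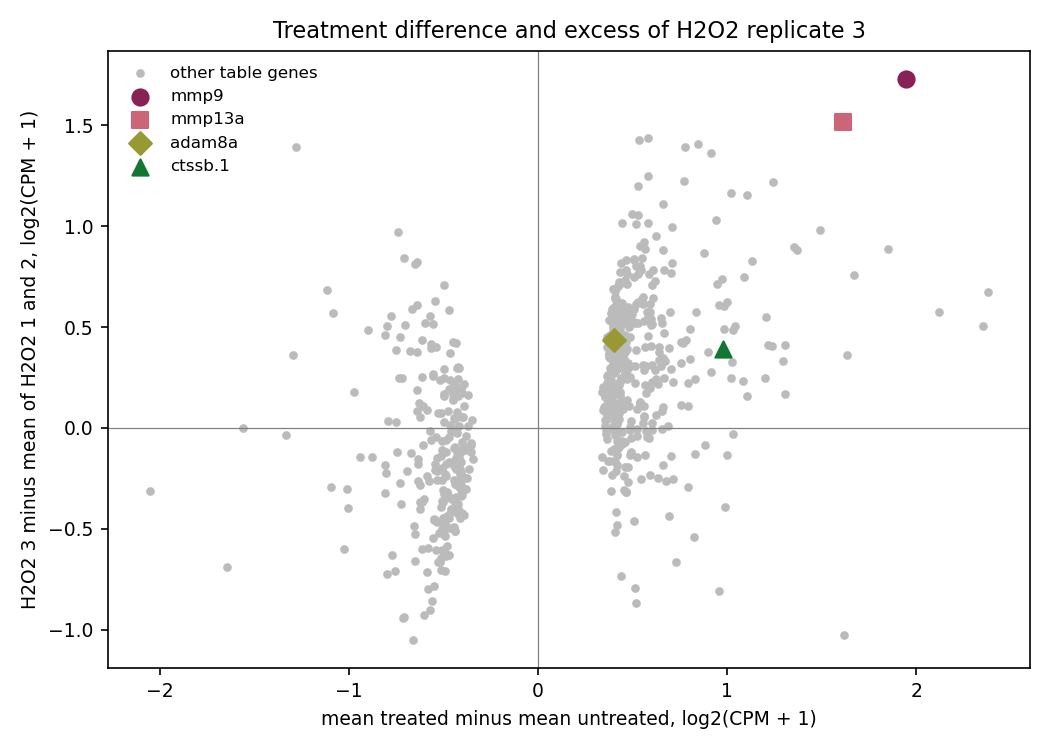
Treated minus untreated difference (x axis) and excess of H2O2 replicate 3 over the mean of the other treated libraries (y axis), both in log2(CPM + 1), for 669 of the 670 table genes. The gene not drawn is listed at 0 in H2O2 replicate 3 and lies below the axis. The points of mmp9 (1.95 and 1.73) and mmp13a (1.61 and 1.52) lie highest on the y axis.

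The 4 genes followed similar courses across libraries. Over the 6 libraries Pearson's r was 0.994 between mmp9 and mmp13a, 0.961 between mmp9 and adam8a and 0.865 between adam8a and ctssb.1, the lowest of the 6 pairs. With the group means removed, r was 0.981 for mmp9 and mmp13a and 0.633 for adam8a and ctssb.1. These are descriptions over libraries that share the 2 treatment levels and H2O2 replicate 3, and r was at least 0.9 with mmp9 for 266 of the other 669 genes of the table (39.8%).

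Of the table genes, the pattern most like that of mmp9 was that of the uncharacterized model ENSDARG00000022615 (r = 0.999 over 6 libraries), which the files place in the family of the laminin alpha 3 chain, a part of the laminin under basal keratinocytes. Its log2(CPM + 1) was 3.13, 3.03 and 3.22 in the untreated and 4.12, 3.8 and 5.18 in the treated libraries. The next were CABZ01067072.1, an uncharacterized immunoglobulin superfamily model, sos2, an exchange factor of Ras, znf574 and wdr26b, with r of 0.998 to 0.994. For mmp13a the most similar genes were mmp9, the same laminin model, the phosphatase relative ptpn23b, CABZ01067072.1 and the Polycomb gene cbx7a, all with r of at least 0.991. For adam8a they were APOB (2 of 3), ino80db, SUN2, otud3 and ptpn23b (r of 0.985 to 0.993). For ctssb.1 they were the cholesterol transporter gene abca1a, enc1, igfbp1a, ddx3 and mylipb (r of 0.994 to 0.997). Among these nearest genes mmp9 and mmp13a had the laminin model and CABZ01067072.1 in common, mmp13a and adam8a had ptpn23b, and ctssb.1 had 0 in common with the others.

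Other proteases of the matrix were looked for by symbol. Of 130 listed symbols of other metalloproteinases, ADAM and ADAMTS proteases, cathepsins, the plasminogen system and protease inhibitors, 2 were found, mmp30 and adamts8a. The table itself holds 670 of about 24000 genes counted as expressed, so nothing is read from the count of 2. None of the 21 symbols listed for other cathepsins and legumain was matched. These symbols include ctss2.1, another name of ctssb.1 itself, and both names of its tandem copy. Nor was any of the 24 inhibitor symbols, which include the tissue inhibitors of metalloproteinases, matched in the table. Symbols outside the table either missed the authors' thresholds or stand there under other names, and their levels were not analysed here. The metalloproteinase gene mmp30 was at 2.64, 2.81 and 2.99 log2(CPM + 1) in the untreated and at 3.22, 3.22 and 4.0 in the treated libraries. The groups did not overlap and replicate 3 was again the highest, and limma gave a difference of 0.67 (standard error 0.22) with an adjusted p of 0.907. Without H2O2 replicate 3 the difference was 0.41. The mmp30 gene lies on the same chromosome as mmp13a, 71800 bases away, and is the nearest gene of the table to it. Its reads were not separated from those of its relatives here. In adamts8a, a secreted protease with thrombospondin motifs, the difference was 0.54 (standard error 0.15).

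By the family text of the files, a search chosen after the values were seen, 4 metalloproteinase models stood beside the described genes, 3 of them higher and 1 lower. The higher ones were mmp30, adamts8a and si:ch1073-174d20.2, at 0.49 (standard error 0.11), in which replicate 3 was the lowest treated library. The lower one was ADAMTS15 (1 of 2), at −0.41 (standard error 0.14). By limma 0 of these 4 passed an adjusted p of 0.05. All 4 had an unadjusted p under 0.05. So did 372 of the 414 higher and 253 of the 256 lower genes of the table, so nothing is read from that count.

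Matrix genes on which such proteases can act were also in the table. Of 61 listed symbols of collagens, laminins and other matrix proteins 3 were found, col5a3b, vcanb and col12a1a. With 670 of about 24000 expressed genes in the table, nothing is read from that count. All 3 were higher in treated larvae, with a median difference of 0.47. The median was also 0.47 for the 414 higher genes of the table, and 0.40 for all 670 genes. Without H2O2 replicate 3 the differences of vcanb and col12a1a were 0.29 and 0.19. The fibrillar collagen gene col5a3b was at 7.42, 7.51 and 7.51 in untreated and at 7.62, 7.60 and 8.81 log2(CPM + 1) in treated libraries, and its difference of 0.53 (standard error 0.30) was 0.13 without replicate 3. By family text, again searched after the values were seen, 6 collagen models were higher and 0 lower, by 0.38 to 0.53, in a table with 61.8% of genes higher. An unadjusted p under 0.05 was found for 1 of the 6, against 372 of the 414 higher genes of the table (55.5% of all 670). Without H2O2 replicate 3 the collagen models CU633999.1 and CABZ01076094.1 were at 0.06 and 0.14, in place of 0.53 and 0.50. They include COL7A1, the collagen of the fibrils that anchor the epidermis, at 0.43 (standard error 0.21), or 0.19 without that library. The integrin subunit genes itgb4 and itga6b, whose products join basal keratinocytes to laminin, were higher by 1.09 (standard error 0.22) and 0.95 (standard error 0.20), and itga11a by 0.35 (standard error 0.11). Replicate 3 was again the highest for itgb4 and itga6b. In H2O2 replicates 1, 2 and 3 itgb4 was at 7.08, 6.70 and 7.64 log2(CPM + 1), and itga6b at 6.57, 6.36 and 7.18. Over all tests 0 of these collagen and integrin genes passed in limma.

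Transcription factors known from mammals to act at the promoters of such proteases were listed together with NF-κB inhibitors. Of 35 listed symbols, which include the NF-κB inhibitors, 12 were in the table, 8 higher and 4 lower, with a median difference of 0.50. The list was chosen with earlier results of these data known, so nothing is read from the count of 12. By limma 0 of the 12 passed over all tests. An unadjusted p under 0.05 was found for 5 of the 8 higher and 4 of the 4 lower ones. In the table it was found for 372 of the 414 higher and 253 of the 256 lower genes (55.5% and 37.8% of all 670). The AP-1 subunit gene fosl1a was at 2.49, 2.47 and 2.42 in untreated and at 3.98, 3.26 and 4.60 log2(CPM + 1) in treated libraries, without overlap. The AP-1 genes junbb and junba were at differences of 0.91 and 0.84 (standard errors 0.38 and 0.38), and in both the groups overlapped. Without H2O2 replicate 3 these differences were 0.46 and 0.38. For cebpb, a leucine zipper factor of inflammation, the difference was 1.02 (standard error 0.32), and 0.63 without that library. In ets2 it was 0.58 (standard error 0.36), where H2O2 replicate 2, at 4.81, lay below 2 untreated libraries. It was 0.10 without replicate 3 and 0.90 without replicate 2. The lower genes were the factors jund at −0.77 and elf3 at −1.12, and the inhibitors nfkbiab at −0.57 and nfkbiaa at −1.29. Whether any of these factors acts on the protease genes was not tested.

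**Figure D4:**
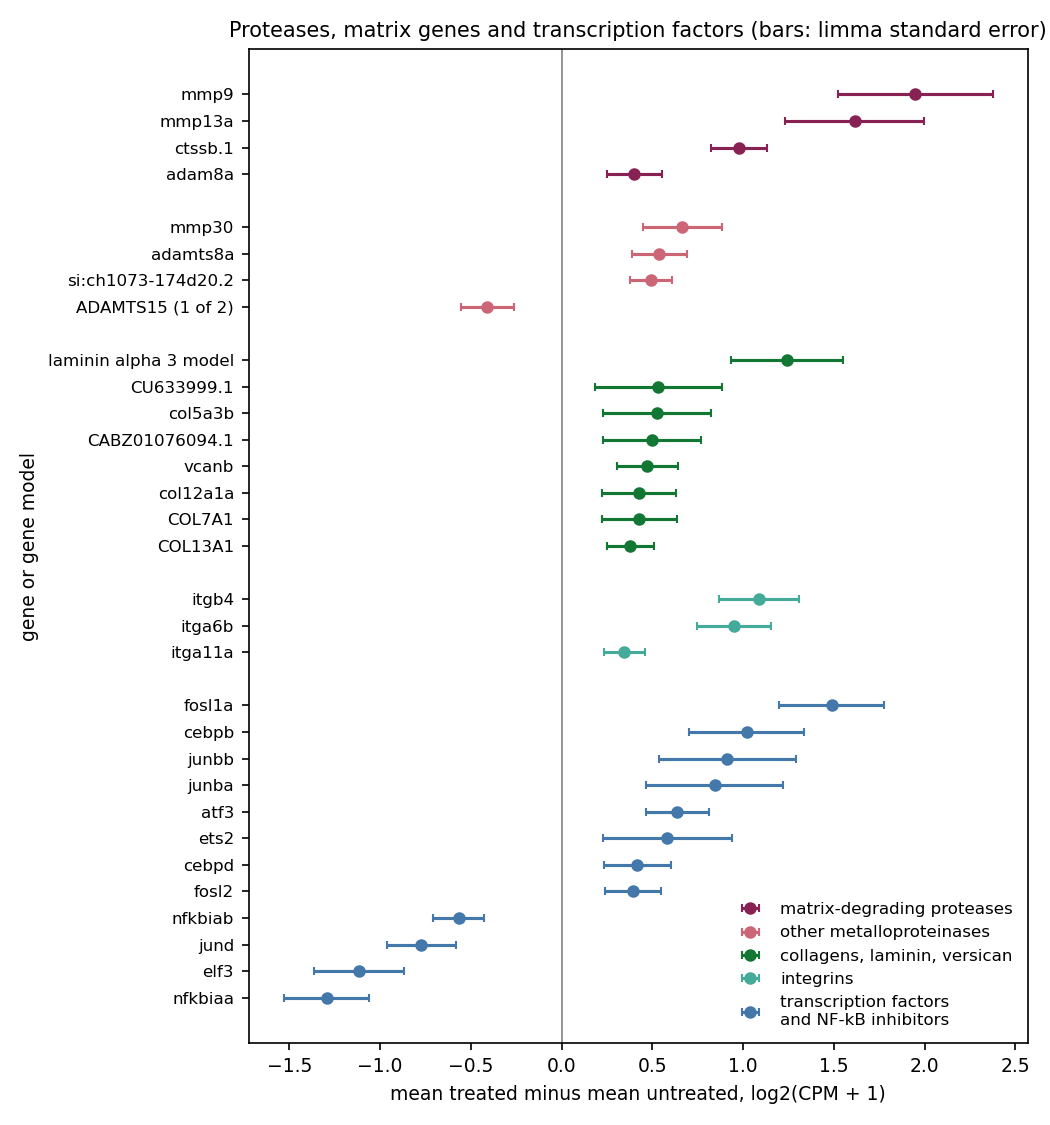
Treated minus untreated difference in log2(CPM + 1) for the 4 protease genes, other metalloproteinases, collagens with a laminin and versican, integrins, and transcription factors with NF-κB inhibitors. Points are differences of group means, and bars are the limma standard error. Among these genes mmp9 lies farthest to the right, at 1.95, and nfkbiaa farthest to the left, at −1.29.

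Cells that could carry these proteases were looked for by their markers. Of 29 symbols for neutrophils, macrophages and leukocytes in general, 0 were in the table, and of 18 symbols for keratinocytes, 0 were. Over 8 cell types, 1 of 78 marker symbols was found, the erythrocyte gene slc4a1a, at 0.37 (standard error 0.14). As the table holds 670 of about 24000 expressed genes, nothing is read from these counts. Symbols were matched as written, so genes under other names, such as the globin model hbae1 and APOB (2 of 3), were not counted. The table holds genes selected for a difference, so the presence of these cells in the larvae could not be checked from it.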

How the data were processed

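Each pool of larvae gave 1 library, with 3 libraries per group, which the paper calls biological replicates. The authors aligned paired reads with RSEM to Ensembl 73 transcripts of Zv9, computed CPM and tested genes with edgeR. The labels also list TopHat, Bowtie2, Cufflinks and Cuffdiff. The deposited log2 values per library were made by the authors from CPM with 1 added, for genes selected by p. The authors' fold changes, p-values and FDR were not used, nor was a sheet of ranked extracts from that comparison. Reads were recovered from the steps of the values, for counting intervals (95%, exact Poisson, counting error only). As they exist only for selected genes, no count test was run.

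Differences were tested with limma 3.58.1 in R 4.3.3, without a trend, with 4.40 prior degrees of freedom, and pairs of genes by exact permutation. The fit was also run on simulated data with the same spread in both groups. The spread of mmp9 and mmp13a was wider in the treated group, so that run does not check the fit for them. Named genes were the 4 proteases, table genes on 7 lists and the 5 most similar genes of each protease. Genes and lists were chosen with earlier results of these data known. Alternatives were other adjustments, moderations, pseudocounts (0.1 and 5), a filter on mean log2 values under 3, a replicate block and leaving out libraries. Sequences were not used here.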

Additional observations from a re-analysis of the deposited data

How the results depend on the processing

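The direction of all 4 differences and of all 6 pair changes was kept under every alternative run. For the 4 differences this was no test, because with groups that do not overlap none of these runs could reverse the sign. Nor could leaving out a library reverse it in the pairs without overlap. Leaving out a library could test the direction only for mmp13a minus ctssb.1, the pair in which the groups overlapped. Leaving out 1 library at a time gave differences of 1.37 to 2.36 for mmp9, 1.11 to 1.91 for mmp13a, 0.85 to 1.09 for ctssb.1 and 0.26 to 0.48 for adam8a, of which 0 passed (adjusted p of at least 0.0829 in limma). It gave 0 to 9 higher and 0 to 1 lower genes past the threshold in the whole table, the 9 without H2O2 replicate 2 and the 1 without H2O2 replicate 3. When only the 670 listed genes were counted as tests, 365 genes passed as higher and 252 as lower, and so did mmp9 (1.95), mmp13a (1.61), ctssb.1 (0.98) and adam8a (0.40), which is not independent evidence because the table was selected by p. Pseudocounts of 0.1 and 5 gave 1.17 and 0.57 for ctssb.1, the widest relative range of the 4. The filter on mean log2 values under 3 removed adam8a and ctssb.1. Same-numbered libraries did not deviate together over the table (r of −0.0014, −0.105 and −9.6e-05). Over genes selected by p in these same libraries, that cannot tell whether the numbers pair them, so the pairing is unknown. With a replicate block, 51 higher and 20 lower genes passed, among them mmp9 (1.95, adjusted p = 1.82e-05 from limma), mmp13a (1.61, adjusted p = 5.52e-05) and ctssb.1 (0.98, adjusted p = 0.00811), whereas adam8a did not. The spread of each gene was again moderated by that of the other selected genes, with a weight estimated anew in this fit and not given here. By SD among treated libraries mmp9 and mmp13a stood at places 2 and 5 of the table. P-values this low for these 2 genes rest on the pooled spread of the selected genes, not on their own wider spread. For that reason, and with the pairing unknown, the p-values of the block fit are not read as evidence. With 3 libraries a group, a p from permutation cannot pass 0.05, and the level of genes outside the table is unknown here.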

Other observations

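By the family text of the files, 4 serine protease models were in the table, all lower in treated larvae, by 0.52 to 0.78 on the log2(CPM + 1) scale. Of all 670 genes, 256 had a lower treated mean. These models were found by a search made after the values were seen, so nothing is read from the count of 4. The models are 2 for trypsin, si:ch73-103b2.3 and zgc:66382, the chymotrypsinogen model zgc:112160 and zgc:123217, a serine protease of no named kind. In zgc:66382 log2(CPM + 1) was 1.85, 2.52 and 2.93 in untreated and 1.39, 1.56 and 2.03 in treated libraries, so the groups overlapped, and they did so in 3 of the 4 models. By limma 0 of the 4 passed an adjusted p of 0.05. An unadjusted p under 0.05 was found for 3, against 253 of the 256 lower genes of the table (37.8% of all 670). These genes were not compared with the matrix proteases by a test.

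The collagen chaperone genes of the serpin H1 family, also searched for after the values were seen, were lower in treated larvae. Of all 670 genes, 256 had a lower treated mean, and 35.5% had every treated library below every untreated one. Nothing is therefore read from their shared direction. For serpinh1b limma gave a difference of −1.64 (standard error 0.20) and an adjusted p of 0.0673, and for serpinh1a a difference of −0.53 (standard error 0.20). In serpinh1a the untreated libraries were at 6.59, 6.44 and 6.44 and the treated ones at 6.04, 6.33 and 5.52 log2(CPM + 1), without overlap, and without H2O2 replicate 3 the difference was −0.31. It lies 71953 bases from mmp13a on chromosome 10, on the side away from mmp30, so that the nearest table genes on either side of the collagenase gene differed in opposite directions. A link between them was not tested.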
